A study of Mus musculus with 4 samples.

Results

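The 47 genes described here are a named set of Wnt pathway components and crypt targets, read out of a count table of 53845 entries for the mouse intestine. They were chosen by their place in the pathway, by a list drawn up with earlier results of these data known, and comprised 3 ligands, 2 proteins of ligand release, 8 receptors and co-receptors, 3 members of the R-spondin module, 3 Dishevelled proteins, 6 components of the destruction complex, β-catenin with 8 nuclear partners or factors, 4 inhibitors, 5 Eph receptors and ephrins, and 4 further crypt targets. RNA-seq was performed on crypts, the epithelial pits at the base of the villi, released by EDTA from the intestine of C57BL/6 mice. One group was wild type (WT). The other, Vil-CREPTKO, carried floxed CREPT alleles (CREPT flox/flox, gene symbol Rprd1b) and villin-cre, a transgene that expresses Cre recombinase in the intestinal epithelium, so non-epithelial cells keep the gene. Each group had 2 libraries, which the methods call biological replicates, and the labels name no irradiation or treatment. The labels give no age, sex or loxP genotype of the WT mice. CREPT is a nuclear protein that binds RNA polymerase II, and the comparison asked which genes of the Wnt pathway differ in their RNA level when it is deleted.

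In the canonical Wnt pathway, secreted Wnt proteins bind a Frizzled receptor together with Lrp5 or Lrp6. Dishevelled proteins are recruited, the destruction complex that marks β-catenin for degradation is inactivated, and β-catenin enters the nucleus, where it works with TCF factors on target genes. At the base of the crypt this pathway maintains stem cells and Paneth cells, and several of its targets, such as Axin2, Rnf43 and Znrf3, feed back to dampen it.

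Library totals lay between 47241049 and 49369315 counts. CPM are counts scaled to the library total after trimmed-mean (TMM) normalisation. As the approximate 95% upper limit for an observed count of 0, 3 counts corresponded to 0.0588 to 0.069 CPM, counting error only. The targeted gene Rprd1b stood at 60.5 and 61.6 CPM in WT and at 26.3 and 29.0 CPM in Vil-CREPTKO, and it fell by 1.14 on the log2 scale (SE 0.12, edgeR adjusted p = 0.0041). Its counts covered the entire gene and did not separate the deleted exon. The 7 epithelial markers summed to 6630 to 7654 CPM. The stromal list of 10 genes summed to 16.1 and 15.3 CPM in WT and to 28.0 and 11.4 CPM in Vil-CREPTKO. Of these 10, 6 were tested, 5 with a positive log2 fold change and 1 with a negative one. The 5 smooth muscle genes summed to at most 0.366 CPM. Vil-CREPTKO replicate 1 stood apart from the other libraries, with 10.2% of its counts on mitochondrial genes against 6.75% to 7.62%, an enterocyte marker sum of 33318 CPM against 18880 to 25232 CPM and a crypt base stem cell marker sum of 1574 CPM against 1944 to 2366 CPM. WT replicate 2 had no counts on 4 Y-linked genes, which reached 148 to 164 CPM in the other 3 libraries. Sex was thus not balanced between the groups, and its part in the differences was not tested.

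Of the 47 genes, 44 passed the filter on low counts and were tested. Fzd6, Lef1 and Notum did not. None of the 44 had an adjusted p under 0.05 in either direction by edgeR's quasi-likelihood test, where 2.71% of the 17504 genes tested did (2.29% lower and 0.423% higher in Vil-CREPTKO). At an unadjusted p under 0.05 the count was 5 of 44 (11.4%), all of them lower in Vil-CREPTKO, against 14.3% of all genes (9.76% lower and 4.49% higher). None passed the fold change cutoff of the study as well (over 2-fold), which 1.64% of all genes did, 1.34% lower and 0.297% higher. DESeq2 placed 3 of the 44 (6.82%) under an adjusted p of 0.05, namely Fzd1, Fzd4 and Dvl1, all lower, against 3.97% lower and 1.17% higher of the 15694 genes it gave an adjusted p. The 5 genes were Wls, Fzd1, Fzd4, Dvl1 and Dvl2. The log2 fold change was negative for 30 of the 44 (68.2%, against 50.9% of all genes), with a median of -0.11 beside -0.0060 over all genes. Without Vil-CREPTKO replicate 1 the median of the set was 0.0057, beside -0.013 over all genes, with 22 of the 44 negative. After correction for GC content and length it was 0.029, beside 0.051 over all genes, with 20 of the 44 negative. The other alternatives gave 26 (without WT replicate 2) to 37 (library-size scaling) negative.

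With 2 libraries a group, the interval of each difference tells more than its p. The 95% interval of the log2 fold change lay within 1 of 0, that is within a 2-fold difference in either direction, for 33 of the 44 genes (75%), against 60.3% of all genes. It included 0 for 39 of them. The 2 groups did not overlap for 16 genes lower in Vil-CREPTKO (36.4%, against 24.2% of all genes) and for 4 genes higher (9.09%, against 21% of all genes). In either direction the groups were separate for 20 genes (45.5%), near the 45.1% of all genes, and most of the 20 were on the lower side. The spread that edgeR estimated between replicates was a biological coefficient of variation of 0.188.

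**Figure D1:**
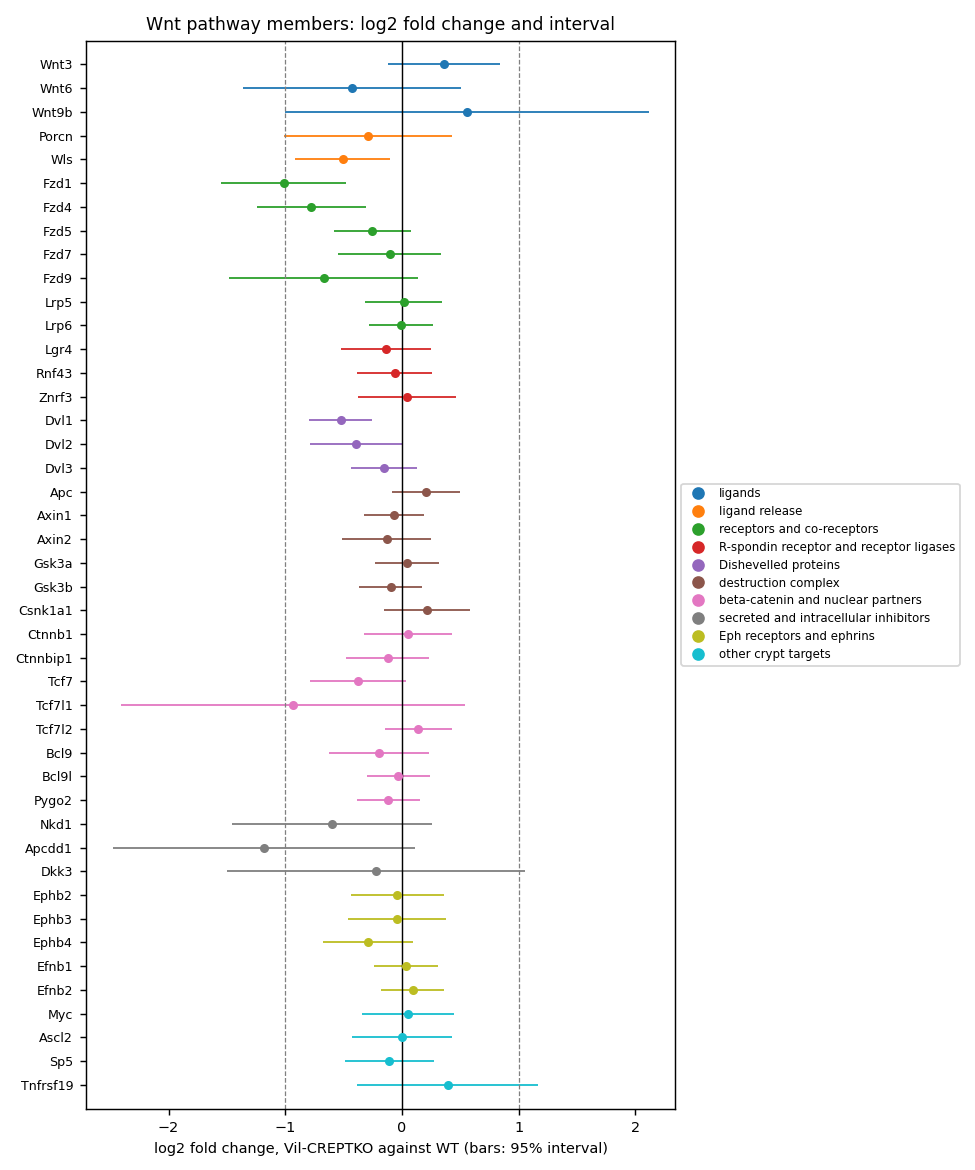
Log2 fold change of the 44 tested genes, Vil-CREPTKO against WT (x axis), by gene (y axis) and coloured by role; bars are 95% intervals and dashed lines mark a 2-fold difference. The intervals of Fzd1, Fzd4, Dvl1, Dvl2 and Wls lie wholly below 0, and those of Apcdd1, Tcf7l1, Wnt9b and Dkk3, all of low level, are the widest.

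The Wnt ligands were at low levels in the crypt RNA. Wnt3, a ligand made by Paneth cells, was the highest of the 3 per exon length, at 1.8 RPKM (CPM per kilobase of exon, mean of all libraries), ahead of Wnt6 at 0.496 RPKM and Wnt9b at 0.151 RPKM. It made up 37.9% to 43.8% of the summed RPKM of all 19 Wnt genes in each library. Wnt3 stood at 4.82 and 4.90 CPM in WT and at 6.56 and 5.93 CPM in Vil-CREPTKO. Both Vil-CREPTKO libraries were above both WT libraries, with a log2 fold change of 0.36 (SE 0.21, 95% interval -0.12 to 0.85, edgeR adjusted p = 0.51). The 10 Paneth cell markers summed to 12754 and 17454 CPM in WT and to 17129 and 17966 CPM in Vil-CREPTKO. Of the 10, 8 had a positive log2 fold change and 2 a negative one. At an edgeR adjusted p under 0.05, 2 were higher and 0 lower, against 0.423% and 2.29% of all genes. The part of these markers in the Wnt3 values was not tested. For Wnt6 and Wnt9b the intervals were wide, from -1.37 to 0.50 and from -1.0 to 2.11 on the log2 scale.

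Wnt proteins need Porcn, which attaches a lipid to them, and Wls, which carries the lipidated protein to the cell surface. Wls (ENSMUSG00000028173, chromosome 3, 159839672 to 159938664, plus strand, GRCm38) stood at 29.9 and 38.6 CPM in WT and at 21.1 and 27.1 CPM in Vil-CREPTKO. The groups did not overlap, although WT replicate 1 and Vil-CREPTKO replicate 2 lay close together. Its log2 fold change was -0.51 (SE 0.18, 95% interval -0.91 to -0.10, edgeR adjusted p = 0.22). Porcn showed 4.43 and 3.66 CPM in WT and 2.42 and 4.17 CPM in Vil-CREPTKO, so the groups overlapped.

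**Figure D2:**
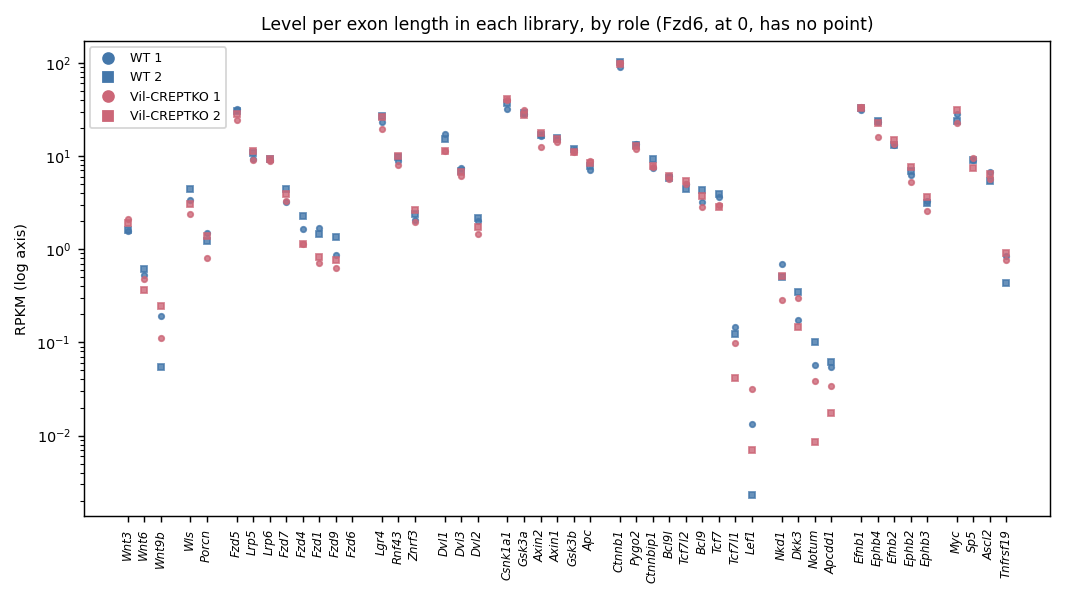
Level of each gene per exon length (y axis, RPKM, log scale) in each of the 4 libraries, with genes ordered within their role along the x axis; circles are replicate 1, squares are replicate 2, WT is blue and Vil-CREPTKO is red. Ctnnb1 is the highest at 97.2 RPKM on average, Fzd5 leads the receptors at 28.7 RPKM, and Fzd6 was listed at 0 and has no point.

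Among the receptors, Fzd5 carried most of the Frizzled RNA. It held 73.0% to 77.8% of the summed RPKM of the 10 Frizzled genes in each library, with Fzd6 entered at its listed value of 0, and the sum itself was 40.8 and 42.0 RPKM in WT and 31.3 and 36.5 RPKM in Vil-CREPTKO. Fzd5 stood at 220 and 212 CPM in WT and at 168 and 195 CPM in Vil-CREPTKO. Both Vil-CREPTKO libraries were the lower ones, with a log2 fold change of -0.25 (SE 0.14, 95% interval -0.58 to 0.077, edgeR adjusted p = 0.50). On the opposite strand Gm38058 shares 17.8% of the Fzd5 exon length, and the strand setting of the counting was not given.

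Fzd1 and Fzd4, both minor Frizzled genes in this tissue, had the lowest fold changes of the receptors. Fzd1 (ENSMUSG00000044674, a single exon on chromosome 5, 4753839 to 4758035, minus strand) stood at 7.07 and 6.05 CPM in WT and at 2.99 and 3.50 CPM in Vil-CREPTKO. The groups were well apart, with the Vil-CREPTKO mean at 49.5% of that in WT. On the log2 scale the difference was -1.01 (SE 0.24, 95% interval -1.55 to -0.48), with an adjusted p of 0.066 by edgeR and of 0.018 by DESeq2. Fzd4 (ENSMUSG00000049791, chromosome 7, 89404355 to 89413134, plus strand) stood at 10.97 and 15.3 CPM in WT and at 7.66 and 7.70 CPM in Vil-CREPTKO. The Vil-CREPTKO libraries were nearly equal and below both WT libraries, which were themselves apart. Its log2 fold change was -0.78 (SE 0.21, 95% interval -1.24 to -0.31), with an adjusted p of 0.10 by edgeR and of 0.044 by DESeq2. Without WT replicate 1 it was -1.0 with an edgeR adjusted p of 0.025, and without WT replicate 2 it was -0.51 with an edgeR adjusted p of 0.46. Fzd4 is also a receptor of endothelial cells, whose 4 markers summed to 2.84 and 3.37 CPM in WT and to 3.29 and 1.98 CPM in Vil-CREPTKO, and their part in the Fzd4 values was not tested. In bulk RNA, fewer cells of a type and less RNA in each cell cannot be told apart.

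The other receptors differed less or were measured less well. Fzd9 stood at 1.98 and 3.13 CPM in WT and at 1.45 and 1.75 CPM in Vil-CREPTKO, without overlap, and its interval ran from -1.48 to 0.14 on the log2 scale. Fzd7 overlapped between the groups, with an interval from -0.55 to 0.34. Fzd6 was listed at 0 counts in all 4 libraries. Since the annotation used in the counting is not given in the sources used here, that value may not reflect the RNA present. The co-receptors Lrp5 and Lrp6, without which Frizzled receptors do not pass on the canonical signal, had log2 fold changes of 0.014 and -0.0073. Their 95% intervals, from -0.32 to 0.35 and from -0.29 to 0.27, bounded any difference well inside 2-fold. Both signs turned in some of the alternative scalings.

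The receptors are themselves kept in check by the membrane ligases Rnf43 and Znrf3, which remove Frizzled from the cell surface, and by R-spondins, which bind Lgr4 and related receptors to clear those ligases. Lgr4, at 23.8 RPKM the highest of the 3, stood at 135 and 158 CPM in WT and at 114 and 153 CPM in Vil-CREPTKO, so that the groups overlapped. Rnf43 stood at 57.9 and 64.4 CPM in WT and at 52.0 and 65.3 CPM in Vil-CREPTKO. Znrf3 stood at 16.1 and 18.8 CPM in WT and at 15.3 and 20.7 CPM in Vil-CREPTKO. For both ligases Vil-CREPTKO replicate 1 was the lowest library and Vil-CREPTKO replicate 2 the highest, so the WT libraries lay between them. The log2 fold changes were -0.06 for Rnf43 (95% interval -0.38 to 0.26) and 0.05 for Znrf3 (95% interval -0.38 to 0.47), and both signs turned under at least 1 alternative.

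The 3 Dishevelled genes link the activated receptor to the destruction complex. All 3 were lower in both Vil-CREPTKO libraries than in both WT libraries, as were 24.2% of all genes. Their log2 fold changes stayed negative under every alternative, but after correction for GC content and length those of Dvl2 and Dvl3 were only -0.25 and -0.014. Dvl1 (ENSMUSG00000029071, chromosome 4, 155847402 to 155859303, plus strand), the highest of them at 13.9 RPKM, stood at 86.6 and 76.9 CPM in WT and at 56.9 and 56.6 CPM in Vil-CREPTKO. The Vil-CREPTKO libraries were almost equal, at 69.5% of the WT mean. On the log2 scale the difference was -0.53 (SE 0.12, 95% interval -0.79 to -0.26), with an adjusted p of 0.059 by edgeR and of 0.035 by DESeq2. Only 36 bp of the exons of Dvl1 are shared with a gene on the opposite strand, Tas1r3, which had 24 to 148 counts in a library. After correction for GC content and length the log2 fold change of Dvl1 was -0.37 (edgeR adjusted p = 0.19).

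Dvl2 stood at 12.6 and 13.8 CPM in WT and at 9.20 and 10.8 CPM in Vil-CREPTKO, which gave -0.40 on the log2 scale (SE 0.17, edgeR adjusted p = 0.35). Its value is uncertain, since 19.7% of its exon length is shared with other genes, almost all of it with the abundant Acadvl on the opposite strand (6963 to 7335 counts), and the strand setting of the counting was not given in the sources used here. Dvl3 had a log2 fold change of -0.15 (95% interval -0.43 to 0.13). The 3 genes summed to 26.8 and 24.5 RPKM in the WT libraries and to 19.0 and 19.8 RPKM in the Vil-CREPTKO libraries, of which Dvl1 made up 64.7% and 62.9% and then 59.9% and 57.2%.

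**Figure D3:**
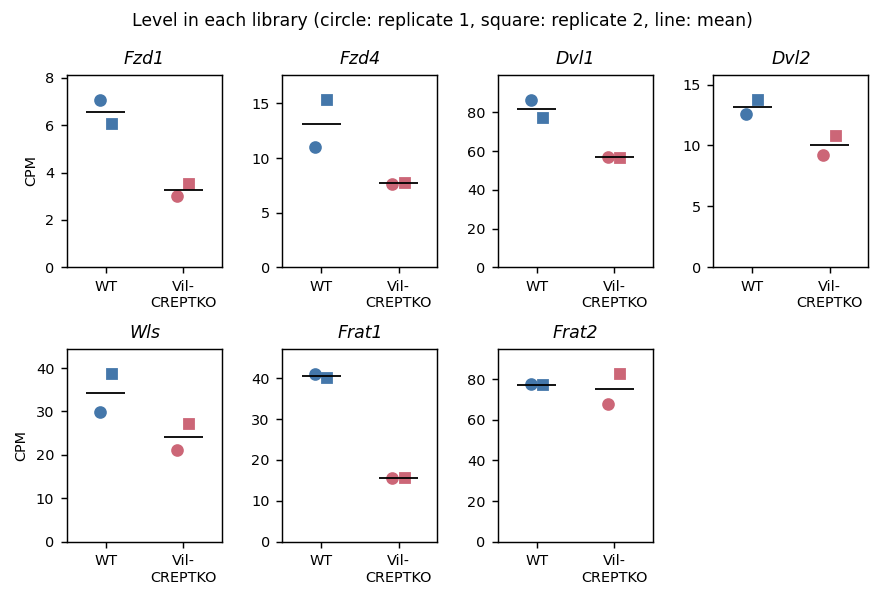
CPM (y axis, from 0) in each library of the 5 genes with an unadjusted p under 0.05 and of the paralogs Frat1 and Frat2, by group (x axis); circles are replicate 1, squares are replicate 2 and lines are means. The groups are separate for Fzd1, Fzd4, Dvl1, Dvl2, Wls and Frat1 and overlap for Frat2.

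The destruction complex was described by 6 genes. Apc and the Axin proteins are its scaffolds, and Csnk1a1, Gsk3a and Gsk3b are the kinases that phosphorylate β-catenin. Csnk1a1, the highest at 37.2 RPKM, stood at 335 and 388 CPM in WT and at 414 and 425 CPM in Vil-CREPTKO. Both Vil-CREPTKO libraries were above WT, by 0.22 on the log2 scale (SE 0.16, edgeR adjusted p = 0.62). Apc was likewise higher without overlap, with 114 and 126 CPM in WT, 143 and 135 CPM in Vil-CREPTKO and a difference of 0.21 on the log2 scale (edgeR adjusted p = 0.53). Axin1 and Gsk3b were lower without overlap by small amounts (log2 fold changes of -0.07, whose sign turned after GC and length correction, and of -0.10), and Gsk3a overlapped at 0.04, with a sign that turned under library-size scaling. All 6 intervals lay within 1 of 0.

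Ctnnb1, the gene for β-catenin, had the highest level of the set per exon length, at 97.2 RPKM. It stood at 467 and 525 CPM in WT and at 521 and 505 CPM in Vil-CREPTKO, so that both Vil-CREPTKO libraries fell between the WT libraries. The log2 fold change was 0.05 (SE 0.17, 95% interval -0.33 to 0.43, edgeR adjusted p = 0.94). Without WT replicate 1, or with library-size scaling, it was slightly negative. RNA levels do not show the amount or the place in the cell of the protein, which the pathway controls.

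The TCF factors, which bind the target genes, were unequal in level. Tcf7l2 made up 57.3% and 51.9% of the summed RPKM of the 4 TCF/LEF genes in WT and 61.7% and 65.3% in Vil-CREPTKO, and Tcf7 made up 40.9% and 46.6% and then 36.7% and 34.2%. Tcf7, itself a target of the pathway, stood at 9.44 and 10.4 CPM in WT and at 7.82 and 7.41 CPM in Vil-CREPTKO. The groups did not overlap, and the log2 fold change came to -0.38 (SE 0.18, 95% interval -0.79 to 0.031, edgeR adjusted p = 0.39). Tcf7 is also a gene of T cells, and the 8 immune cell markers summed to 324 and 224 CPM in WT and to 242 and 187 CPM in Vil-CREPTKO, with 5 of the 8 at a negative log2 fold change, and their part in the Tcf7 values was not tested. Tcf7l2 overlapped, with a log2 fold change of 0.14. Tcf7l1 was at 0.163 to 0.568 CPM, and Lef1 was at 0.0203 to 0.276 CPM and was not tested. The β-catenin partners Bcl9, Bcl9l and Pygo2 and the β-catenin inhibitor Ctnnbip1 had log2 fold changes between -0.19 and -0.03, and each turned sign under at least 1 alternative.

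The 4 inhibitors were low. Nkd1, which binds Dishevelled, was the highest at 0.499 RPKM and stood at 3.19 and 2.30 CPM in WT and at 1.29 and 2.32 CPM in Vil-CREPTKO. Vil-CREPTKO replicate 1 alone was below WT, and the log2 fold change was -0.60 (SE 0.38, edgeR adjusted p = 0.54). Apcdd1, a membrane inhibitor, stood at 0.705 and 0.792 CPM in WT and at 0.437 and 0.224 CPM in Vil-CREPTKO. The groups did not overlap, but the interval of its log2 fold change ran from -2.48 to 0.12 (log2 fold change -1.18, edgeR adjusted p = 0.40). Notum, a secreted enzyme that strips the lipid from Wnt proteins, was at 0.137 and 0.244 CPM in WT and at 0.0920 and 0.0204 CPM in Vil-CREPTKO and was not tested. Dkk3 overlapped between the groups, with an interval from -1.50 to 1.05.

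The genes read as feedback targets of the pathway (Axin2, Rnf43, Znrf3, Nkd1, Notum, Apcdd1, Sp5, Lef1 and Tcf7) were then read together. Of the 7 that were tested, 6 had a negative log2 fold change and 1 a positive one, where 50.9% of all genes were negative. The values ran from -1.18 for the low Apcdd1 to 0.05 for Znrf3, with a median of -0.13. None reached an unadjusted p under 0.05, which 14.3% of all genes did. Tcf7, Nkd1 and Apcdd1 stayed negative under every alternative. After correction for GC content and length Axin2 was at -0.0010, Rnf43 at 0.080 and Sp5 at 0.054. Axin2 (ENSMUSG00000000142, chromosome 11, 108920349 to 108950783, plus strand), the most used readout of β-catenin activity, stood at 89.5 and 92.9 CPM in WT and at 68.5 and 98.0 CPM in Vil-CREPTKO. The Vil-CREPTKO libraries lay on either side of WT. Its log2 fold change was -0.13 (SE 0.17, 95% interval -0.51 to 0.25, edgeR adjusted p = 0.80), and its sign turned without Vil-CREPTKO replicate 1. Sp5, a transcription factor that is a direct target, stood at 19.1 and 19.2 CPM in WT and at 20.1 and 15.5 CPM in Vil-CREPTKO, again on either side.

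**Figure D4:**
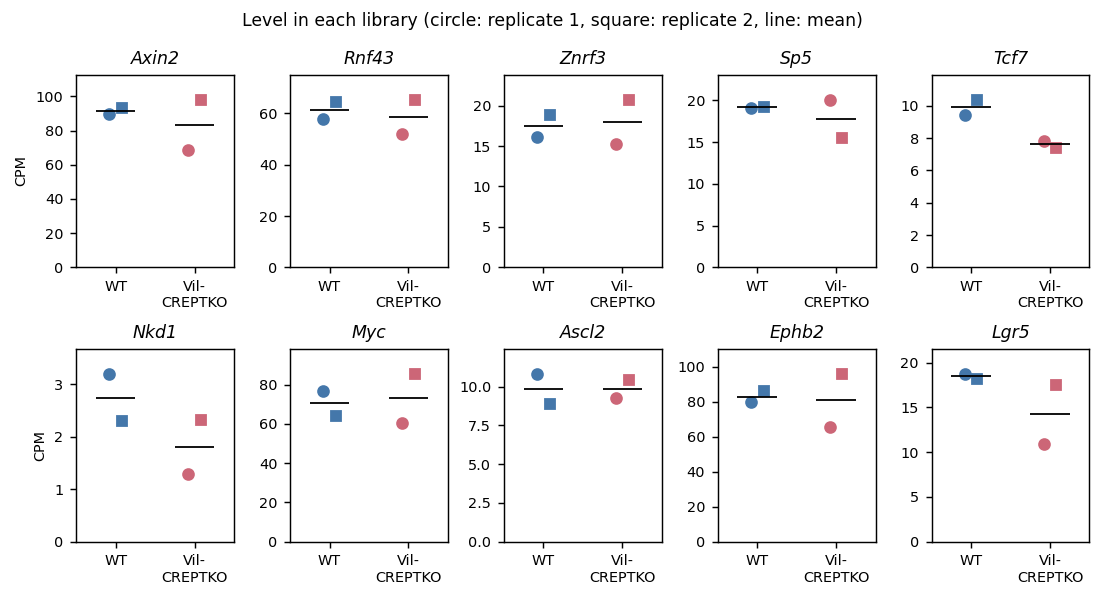
CPM (y axis, from 0) in each library of 9 target genes of the set and of Lgr5, by group (x axis); circles are replicate 1, squares are replicate 2 and lines are means. For Axin2, Rnf43, Znrf3, Sp5, Myc and Ephb2 the Vil-CREPTKO libraries lie on either side of both WT libraries. For Tcf7 and Lgr5 both Vil-CREPTKO libraries lie below both WT libraries.

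The 4 other crypt targets had intervals that included 0, 3 of them within 1 of 0. Myc, a driver of cell growth and the highest of these at 26.4 RPKM, stood at 76.7 and 64.2 CPM in WT and at 60.7 and 85.5 CPM in Vil-CREPTKO. The log2 fold change was 0.05 (SE 0.17, 95% interval -0.34 to 0.45, edgeR adjusted p = 0.93), with a sign that turned under library-size scaling. Ascl2, a transcription factor of crypt base stem cells, had a log2 fold change of 0.0023 (95% interval -0.43 to 0.43), which also turned under library-size scaling. Tnfrsf19, listed as Troy, a receptor of stem cells, stood at 3.96 and 2.07 CPM in WT and at 3.64 and 4.28 CPM in Vil-CREPTKO. Beside them Lgr5, the stem cell receptor for R-spondins that is no member of the set, stood at 18.7 and 18.2 CPM in WT and at 10.95 and 17.5 CPM in Vil-CREPTKO. Both Vil-CREPTKO libraries were below both WT libraries. The difference on the log2 scale, -0.38 (SE 0.22, edgeR adjusted p = 0.50), rested mostly on Vil-CREPTKO replicate 1. It was -0.08 without that library and -0.75 without Vil-CREPTKO replicate 2.

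Eph receptors and ephrins, which sort cells along the crypt axis, had intervals that all included 0. Efnb1, the highest at 32.6 RPKM, stood at 108 and 114 CPM in WT and at 114 and 113 CPM in Vil-CREPTKO. Ephb2 stood at 79.8 and 86.0 CPM in WT and at 65.6 and 95.8 CPM in Vil-CREPTKO. Ephb4 was the only one of the 5 lower without overlap, with 108 and 111 CPM in WT, 73.6 and 105 CPM in Vil-CREPTKO and a difference of -0.29 on the log2 scale (edgeR adjusted p = 0.51), and Efnb2 the only one higher. The Ephb4 value rested on Vil-CREPTKO replicate 1, and was -0.06 without that library and -0.57 without replicate 2. The 5 log2 fold changes lay between -0.29 and 0.09, and all 5 intervals were within 1 of 0.

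The 2 Vil-CREPTKO libraries were then set against the WT mean separately. The median over the 44 genes was -0.21 on the log2 scale in replicate 1 and 0.018 in replicate 2, where the medians over all genes were -0.0139 and 0.0015. In 31 of the 44 genes (70.5%) the level was lower in Vil-CREPTKO replicate 1 than in replicate 2, against 50.1% of all genes. The WT libraries also differed, with 28 of the 44 genes (63.6%) lower in replicate 1 than in replicate 2, against 49.7% of all genes. In 18 of the 44 genes (40.9%) both Vil-CREPTKO libraries were below the WT mean, against 34.8% of all genes, and among these were Fzd1, Fzd4, Dvl1, Dvl2 and Wls. The mitochondrial, enterocyte and stem cell marker values given above also set Vil-CREPTKO replicate 1 apart, and their part in these differences was not tested.

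**Figure D5:**
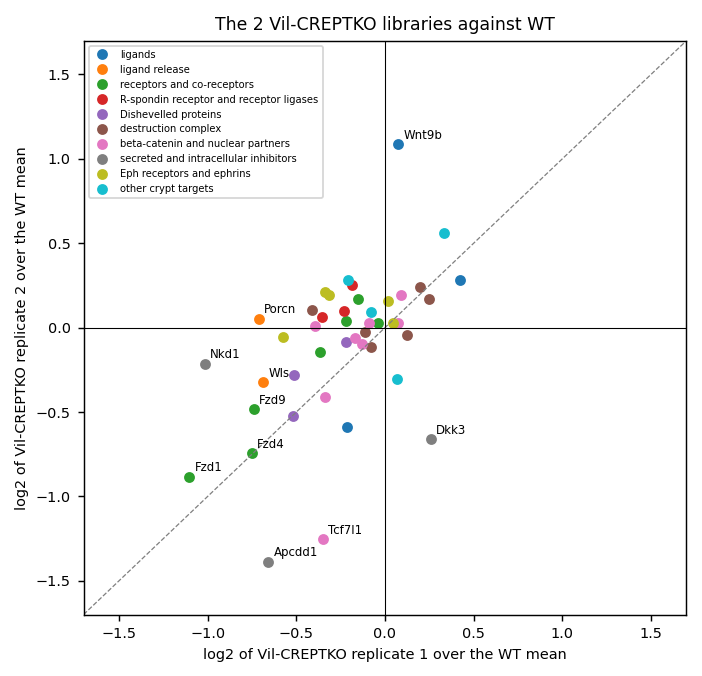
Log2 difference from the WT mean of each tested gene in Vil-CREPTKO replicate 1 (x axis) and replicate 2 (y axis), coloured by role; the dashed line marks equal values. Fzd4 lies on the line at -0.75 in both and Fzd1 near it at -1.10 and -0.88, while 31 of the 44 genes lie above the line.

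To see the set within the whole pathway, 96 other Wnt genes (other ligands, receptors, R-spondins, Frizzled-related proteins, Dickkopf proteins, kinases and nuclear factors) were read out of the same fit. Of these 94 were in the table and 58 were tested. One, Frat1, fell in Vil-CREPTKO and none rose at an adjusted p under 0.05, against 2.29% and 0.423% of all genes. At an unadjusted p under 0.05, 5 of the 58 were lower (8.62%, against 9.76% of all genes) and 1 was higher (1.72%, against 4.49%). The signs were even, 29 negative and 29 positive, with a median log2 fold change of 0.01.

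Frat1 encodes a protein that binds Gsk3 and holds it back from the Axin scaffold, and so acts between Dishevelled and the destruction complex. Frat1 (ENSMUSG00000067199) is a single-exon gene on chromosome 19, 41829970 to 41832583, plus strand. It stood at 41.0 and 40.1 CPM in WT and at 15.5 and 15.6 CPM in Vil-CREPTKO, from 2095 and 1975 counts and 674 and 768 counts. The replicates lay close together and the groups far apart. Frat1 fell by 1.38 on the log2 scale, to 38.4% of WT (SE 0.13, 95% interval -1.68 to -1.09, edgeR adjusted p = 0.0023), and it passed the threshold in each of the 12 alternatives, at log2 fold changes between -1.47 and -1.22.

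The paralog Frat2 lies beside it on the opposite strand (41845972 to 41848132), also with a single exon. Frat2 stood at 77.5 and 77.0 CPM in WT and at 67.7 and 82.5 CPM in Vil-CREPTKO, so that the groups overlapped, with a log2 fold change of -0.04 (SE 0.13, 95% interval -0.33 to 0.25, edgeR adjusted p = 0.93). The log2 ratio of Frat1 to Frat2 was -0.92 and -0.94 in the WT libraries but -2.13 and -2.40 in Vil-CREPTKO, a difference of -1.33. An exact permutation test of that ratio gave a two-sided p of 0.33. As 2 libraries against 2 allow no smaller p, and Frat1 was picked by its difference in these data, the test decides nothing. As the genes are paralogs, reads from stretches they share could have been divided between them in the counting. The 250 bases before the start of each are shown because the neighbours differed in response, from RefSeq (GRCm38.p6), 5′ to 3′ on the gene's strand, at chr19:41829720-41829969 for Frat1 (plus) and chr19:41848133-41848382 for Frat2 (minus), with the runs of at least 10 bases common to both in capitals:
Frat1: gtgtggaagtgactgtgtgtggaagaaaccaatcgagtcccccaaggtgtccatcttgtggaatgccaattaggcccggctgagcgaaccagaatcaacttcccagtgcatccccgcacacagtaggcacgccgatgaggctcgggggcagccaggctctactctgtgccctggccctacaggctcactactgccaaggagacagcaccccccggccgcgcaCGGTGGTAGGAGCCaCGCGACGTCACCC
Frat2: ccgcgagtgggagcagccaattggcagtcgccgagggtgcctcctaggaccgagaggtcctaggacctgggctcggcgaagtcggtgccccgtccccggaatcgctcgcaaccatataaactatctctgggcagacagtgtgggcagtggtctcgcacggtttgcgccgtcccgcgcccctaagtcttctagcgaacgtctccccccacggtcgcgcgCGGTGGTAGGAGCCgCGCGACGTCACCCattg

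The capitals mark 2 runs, of 14 and 13 bases, which end the Frat1 window and lie 4 bases further from the start in Frat2. Outside them the windows held no other common run of that length.

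Promoter windows of the set were searched for the core bound by TCF factors, written as the letters CTTTGAA on either strand, or as CTTTGAT, or with another T as CTTTGTA, or lastly as CTTTGTT. The RefSeq table held 45 promoters of 34 of the 47 genes. Its starts can differ from the gene limits given above, as they do for Fzd1 and Fzd4. At least 1 core lay in the 250 bases before the start in 6 of the 34 genes (17.6%), against 16.8% of all 27025 genes in the table, so the share is near the background. These genes were Sp5, Fzd7, Gsk3a, Lef1, Tcf7l2 and Tnfrsf19, and only Sp5 had more than 1 core. The windows of Fzd1, Fzd4, Dvl1, Frat1, Frat2 and Axin2 held none of these letters. Shown are Sp5 (chr2:70474673-70474922, plus), the target with the most cores, and Fzd1 (chr5:4758217-4758466, minus), Fzd4 (chr7:89404116-89404365, plus) and Dvl1 (chr4:155847152-155847401, plus), the genes of the set that DESeq2 called, with cores in capitals:
Sp5: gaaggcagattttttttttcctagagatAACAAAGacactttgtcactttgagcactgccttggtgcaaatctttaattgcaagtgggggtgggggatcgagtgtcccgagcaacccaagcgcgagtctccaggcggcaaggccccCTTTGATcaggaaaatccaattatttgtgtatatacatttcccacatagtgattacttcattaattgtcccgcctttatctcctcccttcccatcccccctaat
Fzd1: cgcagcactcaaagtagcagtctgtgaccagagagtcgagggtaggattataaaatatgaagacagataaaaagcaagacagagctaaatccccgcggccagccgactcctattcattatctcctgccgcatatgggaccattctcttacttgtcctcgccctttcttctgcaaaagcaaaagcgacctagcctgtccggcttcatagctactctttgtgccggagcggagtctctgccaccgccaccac
Fzd4: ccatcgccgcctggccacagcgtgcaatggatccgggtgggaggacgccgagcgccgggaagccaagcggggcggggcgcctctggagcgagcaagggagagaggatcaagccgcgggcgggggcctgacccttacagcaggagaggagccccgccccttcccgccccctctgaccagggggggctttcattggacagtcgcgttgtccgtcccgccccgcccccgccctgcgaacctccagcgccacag
Dvl1: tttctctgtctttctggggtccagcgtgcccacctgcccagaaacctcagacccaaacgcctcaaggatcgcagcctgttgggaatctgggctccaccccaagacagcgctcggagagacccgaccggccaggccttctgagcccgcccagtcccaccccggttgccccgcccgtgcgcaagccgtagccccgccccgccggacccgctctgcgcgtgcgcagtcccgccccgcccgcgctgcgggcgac

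In Sp5 the cores begin 222 and 104 bases before the start, the first of them on the opposite strand. GC content was 46% in Sp5, 51.2% in Fzd1, 72.8% in Fzd4 and 71.2% in Dvl1.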

How the data were processed

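Whole-number read counts per gene were used as deposited by the authors, with 1 column for each of the 4 libraries. Per the submitters' processing notes and the methods, reads were handled with CASAVA 1.8, aligned to GRCm38.p6 transcripts with Bowtie2 and quantified with RSEM. Other tool versions, the annotation and the strand setting are not given in the sources used here, so overlapping genes on opposite strands may share reads. Beside Dvl2 and Fzd5, Gsk3a shares 28.3% of its exon length with other genes, Ctnnbip1 25.8% and Ctnnb1 15.1%. The methods name BGISEQ and the labels Illumina sequencing. Identifiers matched GENCODE M21 in 53360 of 53845 entries, and 380 unnamed loci stayed in the tests.

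The counts entered edgeR 4.0.16 (R 4.3.3): filterByExpr, TMM scaling and a two-sided quasi-likelihood test with genotype as its term, with p-values adjusted by Benjamini-Hochberg over all 17504 genes tested. CPM used TMM-scaled totals and RPKM divided CPM by merged exon length. Replicates differed beyond sampling noise (chi-square per gene 49.8 in WT and 70.1 in Vil-CREPTKO), so all 4 libraries were kept as separate samples. Scripts were tested on simulated data. Named in full were genes with an unadjusted p under 0.05, Ctnnb1, feedback targets, the highest gene per length of each role, other Wnt genes with an adjusted p under 0.05, Lgr5 and Rprd1b; further genes were named after their values were seen. The members and lists were chosen with earlier results of these data known. The alternatives were a replicate block, DESeq2 1.42.0, 3 other scalings (library-size, RLE and upper-quartile), no filter, at least 10 counts in every library, GC and length correction, and each library left out.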

Additional observations from a re-analysis of the deposited data

How the results depend on the processing

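With 2 libraries a group, precision was limited by the spread between libraries and, for genes of few counts, also by depth: the SE of the log2 fold change was 0.56 to 0.68 for Dkk3, Apcdd1, Tcf7l1 and Wnt9b (8 to 57 counts in a library) against 0.12 for Dvl1. In the set, 0 genes passed an adjusted p of 0.05 by edgeR, and 0 were both past it and over 2-fold. DESeq2 gave 3 lower (Fzd1, Fzd4 and Dvl1), library-size scaling 2 (Fzd1 and Dvl1), no filter on low counts 3 (Fzd1, Fzd4 and Dvl1) and a minimum of 10 counts in every library 1 (Dvl1); leaving out 1 library gave 0 to 1, the 1 being Fzd4 without WT replicate 1. Over 2-fold the count was 1 (Fzd1) with library-size scaling and 1 with no filter. Whether these genes passed thus depended on the setting, and their adjusted p over the alternatives ranged from 0.0067 to 0.18 for Fzd1, 0.0095 to 0.46 for Fzd4 and 0.014 to 0.27 for Dvl1. Wls and Dvl2 passed under no alternative.

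Of the other Wnt genes, 1 was lower and 0 were higher. DESeq2 gave 2 and 1, library-size scaling 2 lower, no filter 3 and 1, and leaving out 1 library 1 to 3 lower and 0 to 1 higher. Beside Frat1 these genes were Sfrp5 and Amer2, lower, and Wnt4, higher. Over all genes, 400 lower and 74 higher became 623 and 183 with DESeq2, 908 and 325 without a filter, and 332 to 462 and 80 to 234 when 1 library was left out, the highest count of 234 being without Vil-CREPTKO replicate 2 and 142 without WT replicate 1. The cause of these shifts was not tested.

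Replicate numbers are shared by the groups. The deviations of same-numbered libraries correlated at 0.0277 over all genes. With only 2 pairs this cannot show whether same-numbered libraries were handled together. With the replicate block, 0 genes of the set and 2 other Wnt genes (Frat1 and Sfrp5) were lower, and 452 genes in all.

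The median log2 fold change of the set, -0.11, ranged from -0.21 without Vil-CREPTKO replicate 2 to 0.029 after GC and length correction. Library-size scaling moved the median of all genes to -0.10 and that of the set to -0.20. The sign turned under at least 1 of 12 alternatives for 23 of the 44 tested genes. It was kept in every alternative that gave a value for 21, of which 15 were lower and 6 higher. Tcf7l1, among the lower ones, had a value in 11 of the 12.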

Other observations

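Beyond the genes named above, 2 secreted regulators of the pathway, chosen after their values were seen, differed between the groups without passing the threshold by edgeR. Sfrp5, a Frizzled-related protein that binds Wnt ligands, stood at 8.60 and 11.5 CPM in WT and at 4.0 and 5.72 CPM in Vil-CREPTKO, a difference of -1.04 on the log2 scale (SE 0.25, adjusted p of 0.070 by edgeR and of 0.0086 by DESeq2). Wnt4, a ligand, stood at 1.25 and 1.38 CPM in WT and at 3.89 and 2.59 CPM in Vil-CREPTKO, a difference of 1.29 on the log2 scale (SE 0.34, adjusted p of 0.098 by edgeR and of 0.034 by DESeq2). For both genes the groups did not overlap, as in 45.1% of all genes tested.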
